A study of Mus musculus with 16 samples.

Results

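Surgical myocardial infarction (MI) was compared with sham surgery in the heart ventricles of neonatal mice that lack Chrna7. This comparison took in 8 of the 16 samples of the series, chosen by their labels: 4 knockout (KO) samples after sham surgery and 4 after infarction. All 8 samples therefore carried the Chrna7 knockout of the Jax strain #003232, and surgery was the only labelled difference between the groups. The other 8 samples were wild-type (WT) ventricles, 4 after sham surgery and 4 after infarction, and are used below only where the responses are set against each other. The tissue was the full ventricles, taken from above and below the ligature together, so a sample holds infarcted and spared muscle. Polyadenylated RNA was isolated with Trizol and a column kit for fibrous tissue, made into NEBNext Ultra libraries and sequenced on a HiSeq 4000. The labels do not give the age in days, the sex, the litter, the time between surgery and harvest, or whether each sample is 1 animal. The p-values below therefore measure the spread between these samples, which may in part be technical. In whole tissue, a change in the number of cells of a type and a change in RNA per cell cannot be told apart.

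Chrna7 encodes a subunit of a nicotinic acetylcholine receptor, a ligand-gated cation channel found on neurons and on macrophages. Acetylcholine acting on this receptor is known to restrain the release of inflammatory cytokines by macrophages, the reflex called the cholinergic anti-inflammatory pathway. The ventricle of a newborn mouse is known for replacing lost muscle by division of cardiomyocytes, an ability that fades soon after birth, and macrophages and cholinergic nerves are both known to take part in it. After an infarct, dying muscle is cleared by monocytes and macrophages, the epicardium is activated, and fibroblasts lay down matrix.

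Levels are given in CPM, the reads of a gene relative to the scaled total of its library. A difference is a log2 fold change, KO MI over KO sham, with a standard error (SE). The SE is the size of the change divided by the square root of F in the test named next. A gene is said to have risen or fallen where edgeR's quasi-likelihood test gave a Benjamini-Hochberg adjusted p under 0.05 over the 13412 genes tested. Libraries are named by group and number, such as KO MI 3. The knockout libraries held 12449879 to 15501352 reads assigned to genes after sham surgery and 13857909 to 14683416 after infarction, and 3 reads correspond to 0.195 to 0.241 CPM.

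The targeted gene could not serve as a check of the labels, because whole-gene counts of Chrna7 were at the floor everywhere. There were 0, 2, 0 and 1 reads of Chrna7 in KO sham 1 to 4 and 2, 2, 4 and 3 reads in KO MI 1 to 4. The wild-type libraries held 0 to 2 reads each. Transcripts of the cardiomyocyte gene Myh6, the alpha heavy chain of cardiac myosin, stood at 30521 to 33520 CPM in KO sham, and Myl7, the atrial light chain, at 68.0 to 125 CPM.

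The 4 KO sham libraries stood apart from all the others, and this touches every result below. On the first principal component of all genes, which held 25.5% of the variance, KO sham lay between 27.9 and 31.6, KO MI between -20.7 and -4.22, and no wild-type library above 0.97. Over the 1145 genes that rose in KO MI, the median level relative to KO sham was 0.51 higher on the log2 scale in KO MI, but already 0.33 higher in WT sham and 0.45 higher in WT MI. Over the 1075 genes that fell, these medians were -0.46, -0.35 and -0.44. These genes were chosen by a contrast that contains KO sham, so the medians are a description and carry no test. Part of the distance followed transcript length. Long genes relative to short ones stood at 0.25 to 0.44 on the log2 scale in KO sham and at -0.18 to -0.08 in KO MI, with no overlap (two-sided exact permutation p = 0.0286, the smallest that 4 against 4 allows). Their means in WT sham and WT MI were -0.06 and -0.10. For that reason each gene list below is also given after a correction of every library for transcript length and GC content.

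**Figure D1:**
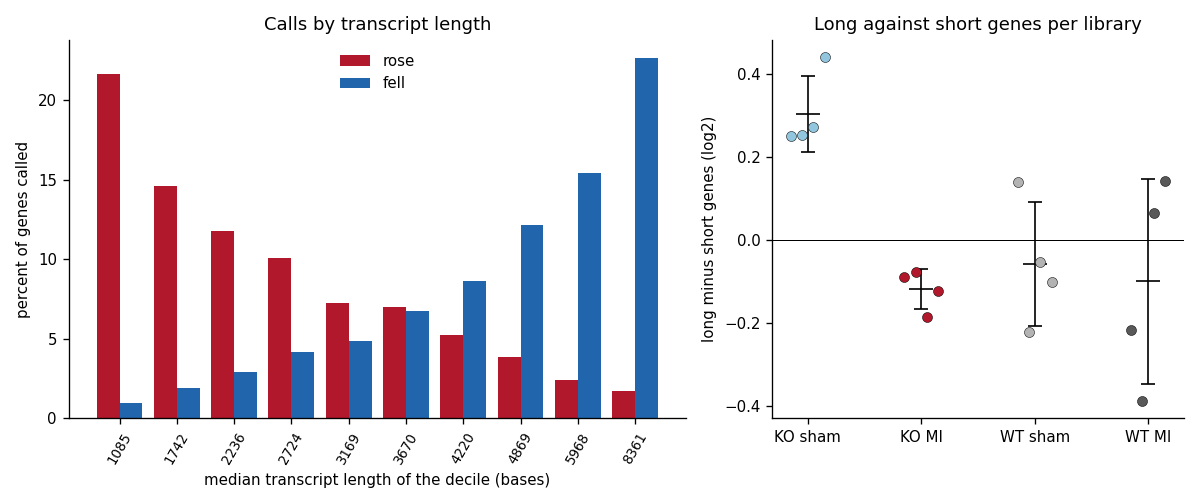
Left, the percentage of genes that rose (red) or fell (blue) in KO MI against KO sham, by deciles of transcript length, named by their median length in bases. Right, the median log2 level of long minus short genes in each library (points) with the mean and SD of each group. In the shortest decile 290 genes rose and 13 fell, in the longest 23 rose and 303 fell, and all 4 KO sham libraries lie above all 4 KO MI libraries.

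KO MI 4 also differed from the other infarcted libraries. Mitochondrially encoded transcripts took 17.3% of its gene reads against 9.79 to 10.6% in KO MI 1 to 3, and 11.8 to 12.98% in KO sham. Reads of Y-linked genes were almost absent from KO sham 2 and KO MI 1. Markers of neighbouring tissue were low but not equal between the groups. The mean log2 CPM of the atrial genes Myl7, Myl4 and Sln was 5.25 ± 0.52 (SD, n = 4) in KO sham and 6.28 ± 0.79 in KO MI (two-sided exact permutation p = 0.114). This mean, the atrial level of the fits below, was 7.41 in WT sham and 6.79 in WT MI. Fits without these libraries, or with the atrial level added, are named where they end the call of a named gene. In several lists below, counts of 1 to 3 genes moved by more than 1.5 times with a single library.

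In KO MI against KO sham, 2220 of 13412 genes (16.6%) were called. Of these, 1145 (8.54% of genes tested) rose and 1075 (8.02%) fell. Most changes were small: 643 of the risen and 766 of the fallen genes changed by less than 1.5-fold. Large changes were mostly rises, with 239 genes up and 43 down by more than 2-fold and 67 up and 1 down by more than 4-fold. For 949 of the risen and 964 of the fallen genes the 4 infarcted libraries did not overlap the 4 sham libraries. Over all genes tested, 1533 lay wholly above and 1671 wholly below the sham libraries, 23.9% together. Calls and lack of overlap come from the same libraries, so the one is no separate support for the other. Leaving out 1 library lowered the count of called genes by more than 1.5 times in 5 cases. That count was 1388, 1380 and 1305 without KO sham 1, 2 or 4, and 1230 and 1443 without KO MI 2 or 3. It was 1291 without the 3 libraries with almost no Y-linked reads. In wild type the same surgery gave 302 called genes (2.25%), and the difference between the responses is taken up at the end.

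**Figure D2:**
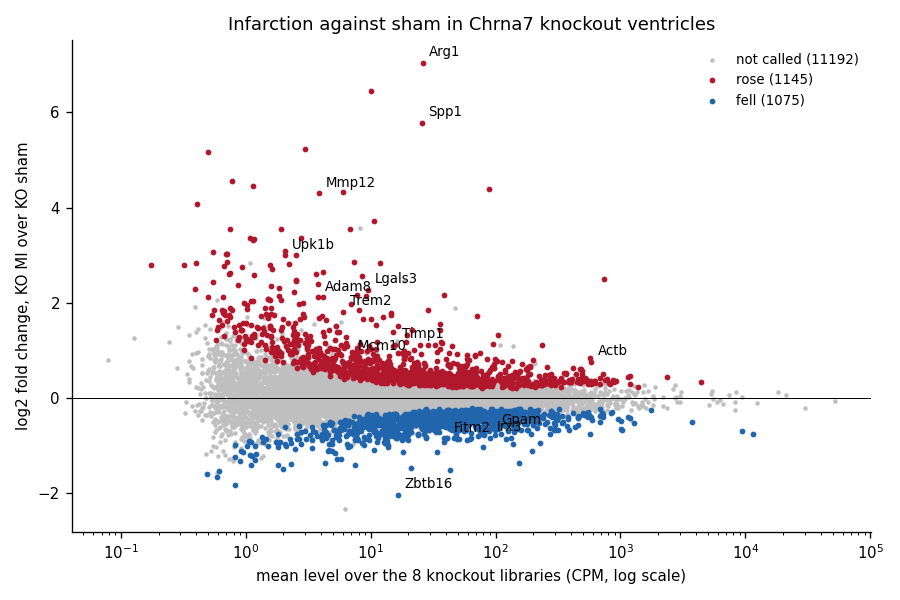
Log2 fold change of every tested gene, KO MI over KO sham, against its mean level over the 8 knockout libraries (CPM, log axis). Red points rose, blue points fell and grey points did not pass. The changes beyond 4 on the vertical axis are all rises, led by Arg1 at 7.04, whereas only Zbtb16 among the named genes lies below -2.

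The genes that separated the groups most sharply by p included several with moderate folds and little spread. Upp1, which splits uridine, was at 23.5, 23.3, 24.8 and 23.6 CPM in KO sham 1 to 4 and at 39.7, 57.2, 41.5 and 56.2 CPM in KO MI 1 to 4 (log2 fold change 1.03 ± 0.13 SE, adjusted p = 7.96e-05). Every infarcted library was thus far above every sham library. Dynll1, a dynein light chain, rose by 0.82 ± 0.09, Bhlhe40, a transcription factor induced by hypoxia and by cytokines, by 1.15 ± 0.13, and Uchl1, a deubiquitinating enzyme, by 0.81 ± 0.11. Mest, an imprinted gene of fetal growth, rose from 146 ± 9.35 to 252 ± 21.8 CPM (log2 0.79 ± 0.11). On the falling side, Ank, a transporter of pyrophosphate out of the cell, was at 113, 107, 120 and 112 CPM in KO sham and at 76.5, 71.8, 70.5 and 73.9 CPM in KO MI (log2 -0.63 ± 0.07, adjusted p = 3.86e-05). Filip1, a regulator of filamin, was at 175, 170, 178 and 173 CPM against 103, 113, 99.6 and 111 CPM (log2 -0.71 ± 0.08). Neither gene's groups came near each other. Pcdh7, a protocadherin, fell by 0.96 ± 0.12 on the log2 scale, and Cirbp, a cold-inducible RNA-binding protein, by 0.65 ± 0.08.

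**Figure D3:**
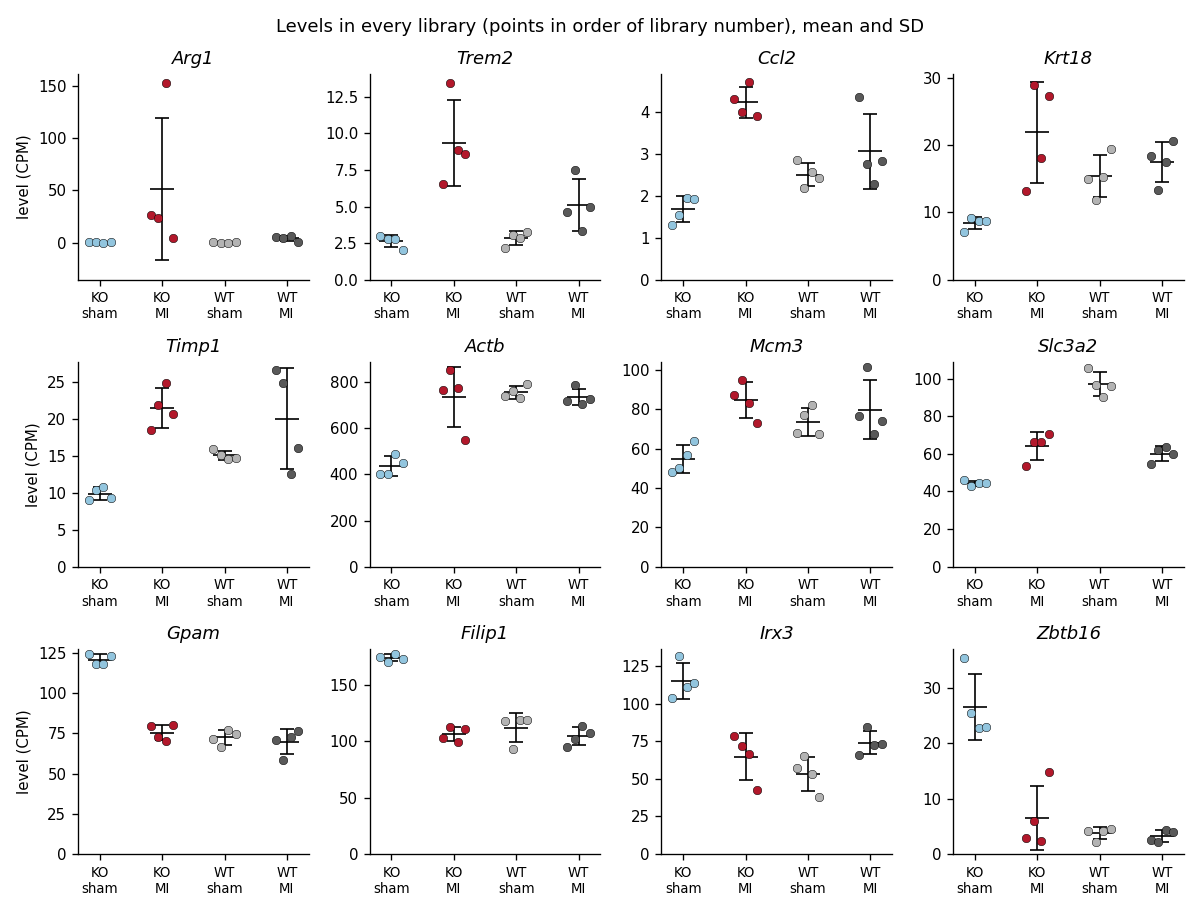
Levels (CPM) of 12 genes in every library, KO sham, KO MI, WT sham and WT MI from left to right, as points in order of library number with the mean and SD. For Arg1 the high mean in KO MI rests on KO MI 3 at 152 CPM, and for Gpam, Filip1 and Zbtb16 the KO sham libraries lie above all 12 other libraries.

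Genes of monocytes and inflammatory macrophages rose together. Of 21 tested genes of this list 16 rose and 0 fell (15 and 0 after the length and GC correction), and the median log2 fold change was 1.22, against 0.01 over all genes tested. Leaving out 1 library gave 13 to 16 risen genes. Trem2, a lipid-sensing receptor of macrophages, stood at 2.99, 2.79, 2.77 and 2.005 CPM in KO sham and at 6.51, 13.5, 8.86 and 8.56 CPM in KO MI (log2 1.81 ± 0.24, adjusted p = 0.000166). Lgals3, a galectin abundant in phagocytes, was at 2.41, 3.46, 3.66 and 3.53 CPM against 11.4, 20.6, 13.5 and 17.2 CPM (log2 2.27 ± 0.30, adjusted p = 0.000223). The lowest infarcted library was more than 2-fold above the highest sham library for both. Mmp12, the macrophage elastase, rose from 0.358 ± 0.138 to 7.34 ± 2.10 CPM (log2 4.30 ± 0.45, adjusted p = 3.4e-05). Cd14, the co-receptor for endotoxin, rose by 1.15 ± 0.19, Ctss, a lysosomal protease of antigen-presenting cells, by 1.85 ± 0.28, and Fabp5, a fatty acid carrier, by 0.67 ± 0.12. Marco, a scavenger receptor, was at 0.13 to 0.16 CPM in KO sham, under the floor of 3 reads, and at 1.44, 2.67, 7.87 and 11.4 CPM in KO MI.

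The highest folds of all belonged to genes whose level varied widely among the 4 infarcted libraries. Arg1, the arginase of wound macrophages, stood at 0.39, 0.441, 0.224 and 0.481 CPM in KO sham and at 26.6, 23.5, 152 and 4.32 CPM in KO MI 1 to 4 (log2 7.04 ± 1.21, adjusted p = 0.00323). KO MI 3 was the highest and KO MI 4 the lowest, more than 30-fold apart, and without KO MI 3 the log2 fold change was 5.53. Col6a5, a chain of collagen VI, was likewise highest in KO MI 3 and lowest in KO MI 4, with 11.2, 12.7, 54.3 and 1.67 CPM (log2 6.45 ± 1.16, and 5.22 without KO MI 3). Spp1, which encodes osteopontin, had another order, with 31.1, 107, 21.5 and 42.2 CPM after infarction against 0.561 to 1.42 CPM after sham surgery (log2 5.77 ± 0.85, and 5.10 without KO MI 2). In all 4 infarcted libraries each of these 3 genes lay above every sham library.

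Markers of macrophages that live in the heart moved less. Of 20 tested genes of that list 5 rose and 0 fell (7 and 0 corrected), with a median of 0.43. Their summed level was 556 to 582 CPM in KO sham and 641 to 769 CPM in KO MI. C1qb, a chain of the complement starter C1q made by macrophages, was at 19.3, 21.8, 21.4 and 19.4 CPM after sham surgery and 30.8, 45.4, 44.4 and 57.8 CPM after infarction (log2 1.12 ± 0.15, adjusted p = 0.000166). Of 6 tested lymphocyte genes none passed edgeR's test (0 rises and 1 fall corrected), and their summed level was 10.9 to 12.5 CPM in KO sham and 10.1 to 12.7 CPM in KO MI. Of 10 tested neutrophil and alarmin genes 7 rose and 0 fell (5 and 0 corrected), at a summed level of 15.9 to 22.5 CPM after sham surgery and 38.4 to 132 CPM after infarction. That count is fragile: it was 2 without KO sham 1 or KO sham 3, 3 without KO sham 2 or KO MI 4, and 4 without KO sham 4. Ngp, a protein of neutrophil granules, was highest in KO MI 4 at 7.87 CPM against 2.95 to 3.37 CPM in the other infarcted libraries and 0.224 to 1.18 CPM in KO sham.

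Among secreted signals, 8 of 20 tested interleukins, TNF family members and chemokines rose and 1 fell (8 and 0 corrected), with a median of 1.08. The single fall was not called without any 1 of 7 of the knockout libraries. Ccl2, the main attractant of monocytes, stood at 1.30, 1.54, 1.94 and 1.92 CPM in KO sham and at 4.32, 3.9995, 4.72 and 3.90 CPM in KO MI (log2 1.34 ± 0.21, adjusted p = 0.000501). The infarcted libraries were tightly grouped and all above the sham ones. Its neighbour in function Ccl7 rose by 1.99 ± 0.40, and Ccl9, a chemokine of macrophages, by 2.12 ± 0.29. Ccl6 rose by 2.56 ± 0.46, or 1.94 without KO MI 3, where it was highest. The cytokine transcripts Il1b, Tnf, Il6 and Il10 were scarce. Il1b was at 0.26 to 0.561 CPM in KO sham and 1.05 to 2.37 CPM in KO MI (log2 2.04 ± 0.66, adjusted p = 0.0408), a call that was lost without any 1 of the knockout libraries except KO MI 3, without the 3 libraries with almost no Y-linked reads, with the atrial level in the fit and after the length and GC correction. Tnf, Il6 and Il10 were below the filter on low counts: over the 4 libraries of a group there were 21 reads of Tnf in KO sham and 43 in KO MI, 2 and 27 reads of Il6, of which 15 came from 1 infarcted library, and 0 and 3 reads of Il10.

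Complement genes, which tag debris and microbes for uptake, also rose: 10 of 16 tested, with 1 fall (9 and 1 corrected), a median of 0.69 and 8 to 10 rises with any 1 library left out. C3, the central component, was at 7.03, 7.57, 9.04 and 8.4999 CPM in KO sham and 68.7, 271, 285 and 50.1 CPM in KO MI (log2 4.40 ± 0.74, adjusted p = 0.00298), the infarcted libraries falling into a high and a low pair. C4b rose by 2.13 ± 0.40 and Cfp, the stabilising factor properdin, by 1.19 ± 0.18. Of 14 genes of MHC class II and antigen presentation 7 rose and 0 fell, but 1 and 0 after the length and GC correction, 0 with the atrial level in the fit, 2 without KO sham 3, KO sham 4, KO MI 2 or KO MI 4, and 3 without KO sham 1 or KO sham 2. B2m, the light chain of class I molecules, was at 93.2, 100, 91.3 and 100 CPM against 134, 158, 113 and 212 CPM (log2 0.68 ± 0.17, adjusted p = 0.0118), a gap that no longer passed once the atrial level was in the fit. Of 20 interferon-stimulated genes 3 rose and 1 fell (2 and 1 corrected), with 1 rise without KO sham 2, KO sham 4 or KO MI 2 and 5 without KO MI 1.

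In the plasminogen and coagulation list 6 of 18 genes rose and 0 fell (5 and 0 corrected, median 0.41). Plaur, the receptor that holds the plasminogen activator urokinase at the cell surface, was at 2.73, 3.75, 4.48 and 3.93 CPM in KO sham and at 7.81, 8.42, 9.97 and 9.75 CPM in KO MI (log2 1.28 ± 0.19, adjusted p = 0.000309). F10, coagulation factor X, which macrophages can make, rose from 0.297 ± 0.218 to 3.51 ± 2.02 CPM (log2 3.54 ± 0.51). Of 14 enzymes of prostaglandins, lipid mediators and nitric oxide 6 rose and 1 fell (6 and 1 corrected). Ptgds, a synthase of prostaglandin D, was at 50.4, 45.2, 56.2 and 52.5 CPM in KO sham and 94.0, 97.7, 105 and 99.6 CPM in KO MI (log2 0.96 ± 0.13, adjusted p = 0.000166). Alox5ap, which presents arachidonic acid to lipoxygenase in leukocytes, rose by 1.03 ± 0.19. Of 24 genes of lysosome, phagocytosis and lipid efflux 9 rose and 1 fell (10 and 1 corrected), with 4 falls without KO MI 4.

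Genes of the epicardium, the mesothelial sheet around the heart, formed another rising group. Of 22 tested, 16 rose and 0 fell (16 and 1 corrected), with a median of 1.53 and 12 to 18 rises with any 1 library left out. Krt8 and Krt18, the keratin pair of simple epithelia, showed it plainly. Krt8 was at 3.51, 3.31, 3.44 and 3.61 CPM in KO sham and at 7.40, 16.8, 10.7 and 15.3 CPM in KO MI (log2 1.85 ± 0.24, adjusted p = 0.000136), and Krt18 rose by 1.38 ± 0.21. Upk1b, a uroplakin of mesothelium, was at 0.521, 0.588, 0.523 and 0.16 CPM in KO sham and at 1.10, 6.88, 5.12 and 1.67 CPM in KO MI (log2 2.996 ± 0.57, adjusted p = 0.0028). KO MI 2 and KO MI 3 were thus the high pair, as they were for C3, which mesothelium also makes and which is on this list too. Dmkn was under the floor of 3 reads in all KO sham libraries and at 0.627 to 3.79 CPM in KO MI. Tcf21, a transcription factor of epicardium and of the fibroblasts that descend from it, rose by 0.55 ± 0.11. Ezr, a linker of membrane and actin on this list, did not pass, at 194 ± 6.24 CPM after sham surgery and 169 ± 12.2 CPM after infarction (log2 -0.20 ± 0.08, adjusted p = 0.103). With the atrial level added to the fit, 13 of the 22 rose. In the plot of list means by library the KO sham libraries were the lowest of all 16 for this list: relative to them its mean log2 level was 0.50 to 1.81 in KO MI and 1.15 to 1.84 in WT sham.

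**Figure D4:**
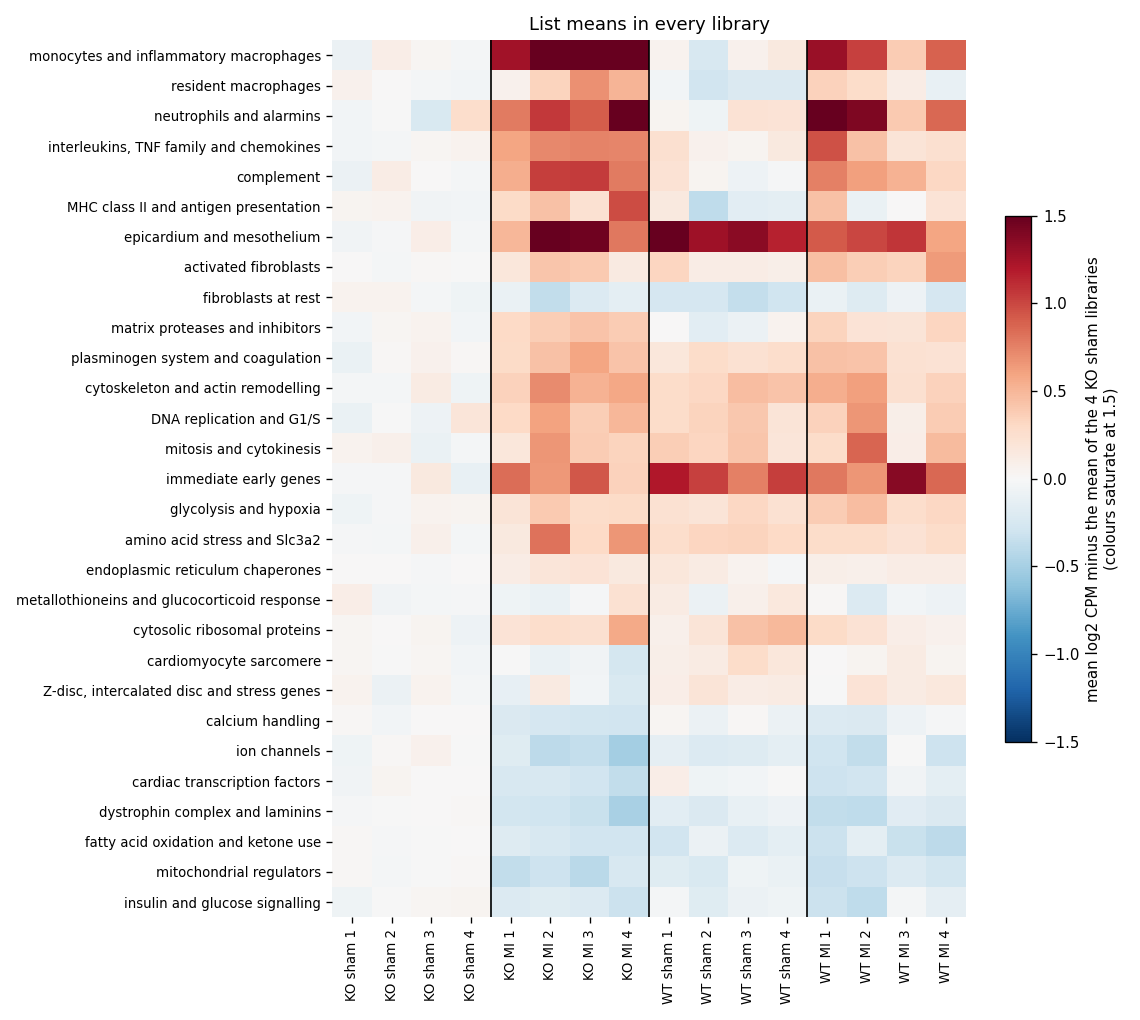
Mean log2 CPM of each gene list in every library, minus the mean of the 4 KO sham libraries (red above, blue below, saturated at 1.5). Inflammatory macrophage and complement genes lie above all KO sham libraries in every infarcted library of both genotypes and between -0.24 and 0.22 in WT sham. Epicardial, immediate early and cytoskeletal genes, among other lists, are low in KO sham alone. Glycolysis and amino acid stress genes are further such lists, at 0.19 to 0.31 and 0.27 to 0.33 in WT sham. In KO MI these 2 lists are at 0.19 to 0.39 and 0.15 to 0.81. Replication genes are at 0.19 to 0.41 in WT sham and 0.30 to 0.60 in KO MI.

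Called fibroblast genes were rises in the activated list and mostly falls in the resting one. Of 24 genes of activated fibroblasts 8 rose and 0 fell (8 and 0 corrected, median 0.26), but 3 without any 1 of KO sham 1 to 3, KO MI 2 or KO MI 3. These rises numbered 4 with the atrial level in the fit and 5 without the 3 libraries with almost no Y-linked reads. Cthrc1, a secreted protein of activated fibroblasts, was at 19.6, 16.2, 16.9 and 16.6 CPM in KO sham and at 24.9, 29.0, 28.9 and 35.0 CPM in KO MI (log2 0.76 ± 0.13, adjusted p = 0.000786). Ptn, the growth factor pleiotrophin, rose by 0.76 ± 0.11. Postn, which encodes periostin, did not pass, with 758 to 882 CPM in KO sham and 861, 824, 814 and 1296 CPM in KO MI, the last of them KO MI 4. Of 17 genes of fibroblasts at rest 1 rose, Tcf21, and 5 fell (1 and 6 corrected). Their summed level was 3093 to 3176 CPM in KO sham and 2376 to 2711 CPM in KO MI. In WT sham it was 2519 to 2739 CPM, also below KO sham. Scara5, a ferritin receptor of adventitial fibroblasts, was at 15.5, 16.7, 12.2 and 13.8 CPM after sham surgery and 8.70, 4.84, 6.04 and 7.87 CPM after infarction (log2 -1.08 ± 0.21, adjusted p = 0.00259). Pdgfra, the receptor that marks cardiac fibroblasts, fell by 0.55 ± 0.12, and Col15a1 by 0.68 ± 0.16.

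The matrix itself changed little as a group. Among 24 collagens 2 rose and 4 fell, with a median of -0.08, against 2 and 2 and a median of 0.05 corrected. Without KO MI 4, 5 rose, and without KO sham 1, KO sham 3, KO MI 2 or KO MI 3, 1 did. Col3a1, a fibrillar collagen of scars, stood at 2970 ± 63.3 CPM in KO sham and 3053 ± 496 CPM in KO MI (log2 0.04 ± 0.10, adjusted p = 0.823). Fn1, fibronectin, was at 800, 1036, 1035 and 343 CPM in KO MI against 641 to 756 CPM in KO sham, so that 3 infarcted libraries were above all sham libraries and KO MI 4 below them (log2 0.21 ± 0.23). Without KO MI 4, Fn1 passed the test with a log2 fold change of 0.46. Proteases and their inhibitors moved more, with 9 of 22 up and 1 down (11 and 2 corrected). Timp1, an inhibitor of matrix metalloproteinases, was at 9.05, 10.4, 10.8 and 9.38 CPM in KO sham and at 18.5, 22.0, 24.9 and 20.7 CPM in KO MI (log2 1.12 ± 0.18, adjusted p = 0.000582). Adam8, a protease of leukocytes, rose by 2.11 ± 0.26 and Adamts1, a protease of proteoglycans, by 0.67 ± 0.16, while Adamts12 fell by 0.63 ± 0.15.

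Genes of the cytoskeleton and of actin remodelling rose broadly. Of 24 genes tested 20 rose and 0 fell (19 and 0 corrected), all 24 had a positive sign, the median was 0.53, and 15 to 20 rose with any 1 library left out. Actb, cytoplasmic beta-actin, was at 401, 401, 488 and 451 CPM in KO sham and at 765, 850, 776 and 550 CPM in KO MI (log2 0.76 ± 0.11, adjusted p = 0.00024). Actg1, gamma-actin, was at 368, 345, 435 and 379 CPM against 551, 625, 599 and 553 CPM (log2 0.61 ± 0.10, adjusted p = 0.000786). KO MI 4 was the lowest infarcted library for Actb and still above all sham libraries. Capg, an actin-capping protein of macrophages, rose by 0.92 ± 0.15, Tubb2b, a beta-tubulin, by 0.93 ± 0.16, Tmsb4x, thymosin beta, by 0.53 ± 0.10, and Vim, vimentin, by 0.44 ± 0.09. Flna, a long gene that encodes filamin, did not pass at a log2 fold change of 0.10 ± 0.10, and did pass at 0.31 after the length and GC correction.

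Genes of DNA replication rose, those of mitosis less firmly. In the list of DNA replication and the entry into S phase 22 of 32 genes rose and 0 fell (22 and 0 corrected, median 0.51), and 14 without KO MI 2. Mcm3, a subunit of the helicase that opens DNA for replication, was at 47.8, 49.99, 56.6 and 63.6 CPM in KO sham and at 87.3, 94.7, 83.1 and 73.2 CPM in KO MI (log2 0.64 ± 0.12, adjusted p = 0.0021). All infarcted libraries lay above all sham libraries. Mcm10 rose by 0.86 ± 0.17, Mcm5 by 0.55 ± 0.12, Ccne1, the cyclin that drives entry into S phase, by 0.78 ± 0.16, and Cdc6, which loads the helicase, by 0.78 ± 0.16. Rrm2, a ribonucleotide reductase subunit, did not pass at 82.3 ± 13.7 and 96.2 ± 8.25 CPM. In the mitosis and cytokinesis list 11 of 26 genes rose and 0 fell (11 and 0 corrected, median 0.40), a count that ran from 3 without KO sham 4 or KO MI 2, through 4 to 6 without KO sham 1, 2 or 3 or KO MI 3, to 17 without KO MI 1. Tpx2, a spindle protein, rose by 0.57 ± 0.12 and Top2a, the topoisomerase that untangles chromosomes, by 0.55 ± 0.13. Mki67, the antigen of cycling cells, was at 195, 193, 180 and 197 CPM in KO sham and at 189, 276, 203 and 204 CPM in KO MI, with KO MI 2 highest (log2 0.19 ± 0.13, adjusted p = 0.317). Ccnb1, the mitotic cyclin, was at 37.5 to 42.3 CPM in KO sham and at 39.6, 62.8, 49.1 and 63.0 CPM in KO MI (log2 0.45 ± 0.16, adjusted p = 0.0591), and passed without KO MI 1.

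Factors of the E2F family drive the replication genes in S phase, and their motif was looked for in RefSeq promoter windows (build GRCm38.p6, 250 bases before to 50 after the start, 300 in all). An E2F match was TTTCCCGC, TTTGGCGC, TTTCGCGC or TTTGCCGC on either strand, and overlapping matches were counted each. It was present in 11 of the 24 replication genes with a window (45.8%) and in 704 of 27025 genes with a window (2.6%). The windows of the 2 risen members with the smallest p that hold a match are shown, 5′ to 3′ on the gene's strand, with the match in capitals. The first lies at chr1:20820263-20820562 on the minus strand and the second at chr11:98907901-98908200 on the plus strand.
Mcm3: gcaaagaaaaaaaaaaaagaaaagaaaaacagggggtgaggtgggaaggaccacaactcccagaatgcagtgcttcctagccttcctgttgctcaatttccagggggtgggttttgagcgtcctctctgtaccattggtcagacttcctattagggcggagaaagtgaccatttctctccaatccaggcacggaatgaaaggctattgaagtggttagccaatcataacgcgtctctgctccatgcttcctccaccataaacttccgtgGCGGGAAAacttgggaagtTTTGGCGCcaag
Cdc6: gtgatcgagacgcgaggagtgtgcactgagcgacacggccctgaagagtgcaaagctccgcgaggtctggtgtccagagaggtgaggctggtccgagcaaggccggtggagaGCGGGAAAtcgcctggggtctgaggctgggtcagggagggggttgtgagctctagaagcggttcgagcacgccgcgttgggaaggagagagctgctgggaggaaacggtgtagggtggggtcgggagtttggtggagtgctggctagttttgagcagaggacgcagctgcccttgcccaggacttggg
Mcm3 held 2 matches, both just after its start, and Cdc6 held 1, on the other side of it. A match is a description of these letters and was not tied to binding of a factor.

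Immediate early genes, transcription factors switched on within minutes by growth factors, stretch or stress, rose in part. Of 22 tested 10 rose and 0 fell (9 and 0 corrected, median 0.78), with 8 to 12 rises when any 1 library was left out and 4 when the 3 libraries with almost no Y-linked reads were left out together. Ier2 was at 18.4, 21.1, 21.2 and 19.3 CPM in KO sham and at 35.8, 31.7, 37.8 and 28.0 CPM in KO MI (log2 0.74 ± 0.13, adjusted p = 0.00104). Fos, a partner in the factor AP-1, was at 0.586, 1.32, 1.42 and 0.802 CPM against 9.45, 4.56, 6.89 and 4.18 CPM (log2 2.60 ± 0.56, adjusted p = 0.00677). Junb, its partner, rose by 0.93 ± 0.17 and Klf2, a factor induced by flow in endothelium, by 0.90 ± 0.20. These genes were lowest in KO sham: Fos stood at 11.002 CPM in WT sham and 13.4 CPM in WT MI on average. Serum response factor reads the CArG box, 2 C, 6 of A or T, and 2 G, which was found in 2 of the 17 listed genes with a window (11.8%) and in 1.81% of all genes with one. A risen member that held it was Egr2, a zinc-finger factor, at chr10:67537316-67537615 on the plus strand of the same RefSeq build.
Egr2: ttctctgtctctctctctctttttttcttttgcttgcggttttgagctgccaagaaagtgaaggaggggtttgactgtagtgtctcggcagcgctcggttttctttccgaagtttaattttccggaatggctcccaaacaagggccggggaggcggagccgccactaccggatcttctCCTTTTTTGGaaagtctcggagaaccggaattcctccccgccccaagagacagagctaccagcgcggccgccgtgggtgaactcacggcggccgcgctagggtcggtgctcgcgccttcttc
The capitals mark the CArG box. Egr2, chosen after its values were seen, was scarce, at 0.0735 to 0.598 CPM in KO sham and 0.835 to 2.32 CPM in KO MI (log2 1.87 ± 0.54, adjusted p = 0.0229), and its call was lost without KO sham 2, KO sham 4 or KO MI 2, without the 3 libraries with almost no Y-linked reads and with the atrial level in the fit.

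Glycolysis and hypoxia genes rose more often than they fell: 14 of 32 up and 2 down (13 and 4 corrected, median 0.31), with 12 to 16 rises when any 1 library was left out. Slc16a3, the exporter of lactate, was at 6.57, 4.999, 7.03 and 7.30 CPM in KO sham and at 15.4, 27.8, 23.8 and 22.8 CPM in KO MI (log2 1.79 ± 0.20, adjusted p = 6.44e-05). The groups were more than 2-fold apart at their nearest. Pgam1, a glycolytic mutase, was at 42.9, 45.3, 57.2 and 47.1 CPM against 68.7, 106, 81.3 and 97.7 CPM (log2 0.88 ± 0.13, adjusted p = 0.000306). Pfkl, a phosphofructokinase, rose by 0.52 ± 0.09, Ldha, which makes lactate, by 0.46 ± 0.10, and P4ha1, a collagen prolyl hydroxylase induced by hypoxia, by 0.57 ± 0.09. Pkm, pyruvate kinase, stood at 1726 ± 120 and 2038 ± 127 CPM without overlap and did not pass (adjusted p = 0.0642), but did without KO MI 4. Epas1, the hypoxia-inducible factor of endothelium, went the other way, from 215, 212, 250 and 218 CPM to 155, 137, 151 and 120 CPM (log2 -0.67 ± 0.11, adjusted p = 0.000646).

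The core of the hypoxia response element, ACGTG, was found on either strand in 19 of the 28 glycolysis and hypoxia genes with a promoter window (67.9%) and in 21.8% of all genes with one. It is short and common, so most matches fall outside this list. The windows of the 2 risen members with the smallest p that hold it are given with the match in capitals: chr11:120948817-120949116 and chr19:41911621-41911920, both on the plus strand of GRCm38.p6, from RefSeq.
Slc16a3: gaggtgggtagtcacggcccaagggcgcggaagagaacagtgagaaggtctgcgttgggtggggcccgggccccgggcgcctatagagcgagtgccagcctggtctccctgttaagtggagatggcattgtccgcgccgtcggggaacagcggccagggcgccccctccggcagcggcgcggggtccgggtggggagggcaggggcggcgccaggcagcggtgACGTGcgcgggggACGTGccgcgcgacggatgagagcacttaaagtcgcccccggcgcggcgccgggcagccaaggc
Pgam1: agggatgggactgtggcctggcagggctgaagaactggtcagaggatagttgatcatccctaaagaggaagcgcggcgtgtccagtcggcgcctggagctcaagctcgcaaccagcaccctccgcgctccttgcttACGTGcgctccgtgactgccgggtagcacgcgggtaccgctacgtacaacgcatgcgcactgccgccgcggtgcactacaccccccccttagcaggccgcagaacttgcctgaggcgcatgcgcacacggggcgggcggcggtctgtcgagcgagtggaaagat
Slc16a3 carries a pair of cores shortly before its start and Pgam1 a single one farther out.

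The list of amino acid stress joined stress regulators and stress factors to genes that supply serine, one-carbon units and amino acids. Of its 19 tested genes 10 rose and 0 fell (8 and 0 corrected, median 0.49). With any 1 library left out, 7 to 11 rose. Slc3a2, the shared heavy chain of several amino acid transporters, was at 45.9, 42.6, 44.2 and 44.3 CPM in KO sham and at 53.8, 66.0, 66.1 and 70.8 CPM in KO MI (log2 0.53 ± 0.09, adjusted p = 0.000646). Mthfd2, a mitochondrial folate enzyme, was at 5.66, 6.32, 7.03 and 7.78 CPM against 10.3, 36.8, 13.4 and 29.8 CPM (log2 1.75 ± 0.31, adjusted p = 0.00223). Phgdh, which starts serine synthesis, was at 4.56, 5.73, 7.47 and 5.93 CPM against 7.81, 30.6, 10.5 and 28.1 CPM (log2 1.70 ± 0.35, adjusted p = 0.0049). KO MI 2 and KO MI 4 were the high pair for both, and Psat1, the next enzyme of serine synthesis, rose by 0.84 ± 0.18. Of 19 chaperones and folding factors of the endoplasmic reticulum 8 rose and 2 fell (6 and 2 corrected), and 5 rose without KO sham 1, KO sham 3 or KO MI 2. Creld2 rose by 0.54 ± 0.09 and Sel1l, of the degradation machinery, fell by 0.51 ± 0.11, while Hspa5, the central chaperone, did not pass at 446 ± 19.5 and 473 ± 17.8 CPM.

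**Figure D5:**
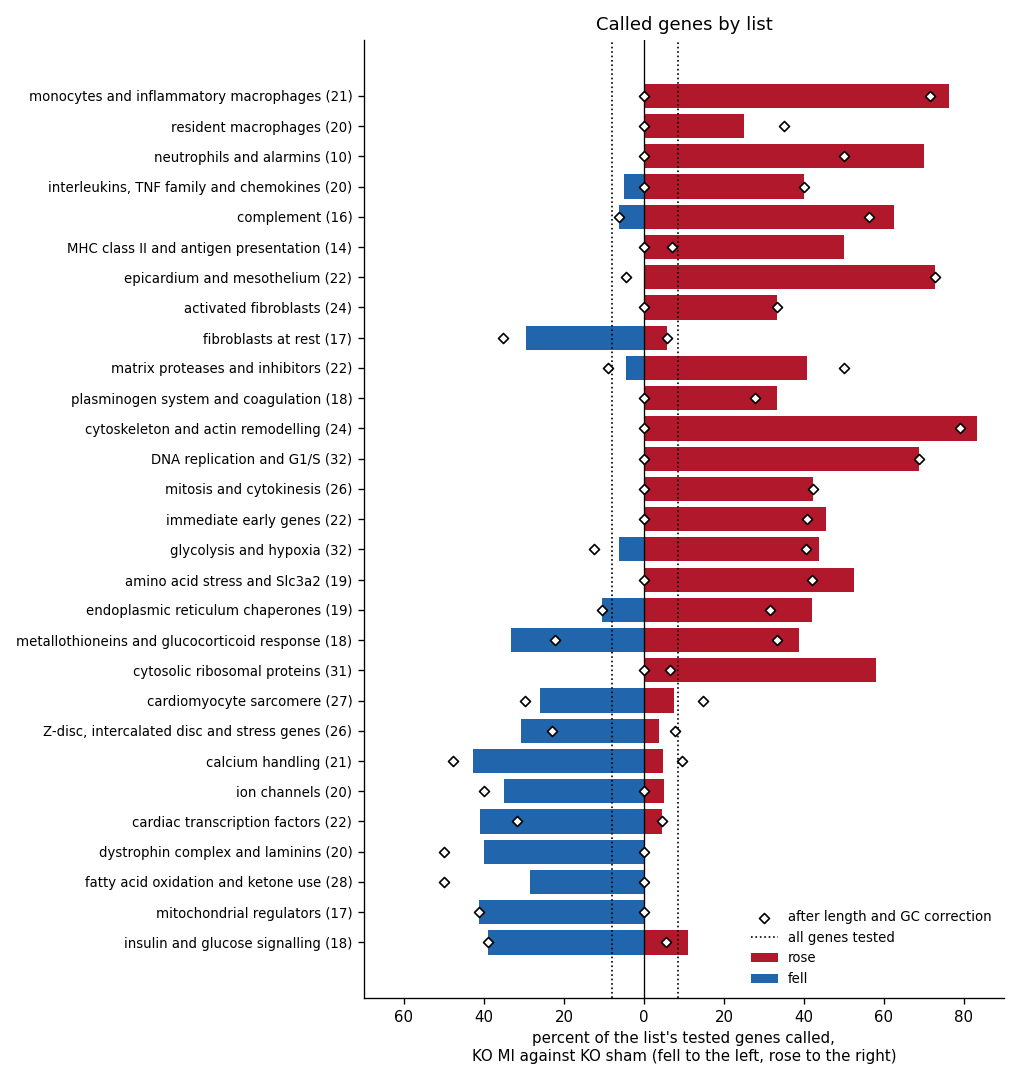
Percentage of the tested genes of each list (number in brackets) that rose (red, to the right) or fell (blue, to the left) in KO MI against KO sham, with diamonds for the share after correction for length and GC content. Dotted lines give the shares over all genes tested, 8.54% and 8.02%. Cytosolic ribosomal and MHC class II genes lose most of their rises under the correction, and fatty acid oxidation gains falls.

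The muscle program of the cardiomyocyte fell in parts. Of 27 sarcomere genes 2 rose and 7 fell (4 and 8 corrected, median -0.10), 4 fell without KO sham 1 or KO sham 2, and 5 rose without KO MI 4. Ttn, the giant spring titin, was at 4462, 4032, 4340 and 4780 CPM in KO sham and at 3213, 3439, 3002 and 2799 CPM in KO MI (log2 -0.50 ± 0.12, adjusted p = 0.00812). Mylk4, a myosin light chain kinase of heart, fell from 31.0 ± 4.1998 to 11.2 ± 2.08 CPM (log2 -1.47 ± 0.27), and Tcap, the titin cap, by 0.41 ± 0.11, a call lost without the 3 libraries with almost no Y-linked reads and with the atrial level in the fit. Acta1, skeletal alpha-actin, was at 46.2, 58.5, 76.3 and 57.7 CPM against 131, 158, 156 and 156 CPM (log2 1.33 ± 0.20, adjusted p = 0.000703). Tnni1, slow skeletal troponin I, was at 383, 470, 396 and 398 CPM in KO sham and at 847, 781, 719 and 596 CPM in KO MI (log2 0.84 ± 0.12, adjusted p = 0.000342). Myh8, the perinatal myosin of skeletal muscle, rose from 1.08 ± 0.192 to 4.30 ± 1.69 CPM and was the only 1 of 6 skeletal muscle genes to rise, with 0 falls (2 and 0 corrected, 2 and 0 without KO MI 1 or KO MI 3), though all 6 were positive at a median of 0.38. Among skeletal muscle genes below the filter, Myh1 had 1 read in all of KO sham and 29 in KO MI, and Tnnc2 10 and 45, 31 of them in 1 library. The whole list, with the creatine kinase Ckm on it, summed to 2245 to 2609 CPM in KO sham and 2635 to 2921 CPM in KO MI. Myh8 and the genes below the filter made up little of that sum. The part of skeletal muscle in the sum, and in the levels of Acta1 and Tnni1, was not tested. Myh6 itself was at 33747, 31782, 31861 and 13345 CPM in KO MI, so that KO MI 4 alone fell far below the sham level (log2 -0.20 ± 0.18, adjusted p = 0.477).

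The natriuretic peptides, which stretched muscle secretes, varied widely. Nppa was at 230, 145, 363 and 153 CPM in KO sham and at 412, 1819, 644 and 2186 CPM in KO MI (log2 2.50 ± 0.61, adjusted p = 0.0169). The groups did not overlap, yet the call was lost without KO sham 2 or KO sham 4 and with the atrial level in the fit, and Nppa is itself abundant in atria. Nppb was at 201, 118, 165 and 132 CPM against 122, 359, 235 and 309 CPM (log2 0.73 ± 0.27, adjusted p = 0.0799), with overlap, and passed without KO MI 1. The atrial list gave 2 rises and 0 falls among 14 genes (2 and 0 corrected), Nppa among them, and 0 rises with the atrial level in the fit. That level is the mean of Myl7, Myl4 and Sln, which are on the list, so the last count is no separate check. The summed level of the list, Nppa included, was 417 to 774 CPM in KO sham and 816 to 2978 CPM in KO MI. Gja5, a connexin of atria and of the conduction system, was at 5.45 to 5.98 CPM in KO sham and 10.3 to 12.3 CPM in KO MI, a call lost with the atrial level in the fit, and Myl7 at 68.0 to 125 against 88.8 to 298 CPM with overlap.

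Calcium handling and membrane excitability fell more broadly. Of 21 calcium genes 1 rose and 9 fell (2 and 10 corrected, median -0.38), with 6 to 11 falls when any 1 library was left out. Atp2a2, the pump that refills the sarcoplasmic reticulum, was at 11541, 11534, 11184 and 11718 CPM in KO sham and at 8377, 6676, 7170 and 6399 CPM in KO MI (log2 -0.68 ± 0.11, adjusted p = 0.000517). It was among the most abundant genes to fall, and no infarcted library came near the sham level. Jph2, which couples the reticulum to the surface membrane, fell by 0.41 ± 0.08 (not called after the length and GC correction), and Cacnb2, a subunit of the calcium channel, by 0.54 ± 0.09. Of 20 ion channel genes 1 rose and 7 fell (0 and 8 corrected, median -0.35). Abcc9, the sulfonylurea receptor of the ATP-sensitive potassium channel, fell by 0.67 ± 0.12.

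Cardiac transcription factors and the links between muscle cells and matrix followed. Of 22 transcription factors 1 rose and 9 fell (1 and 7 corrected, median -0.30), 4 fell without KO MI 2, 5 without KO sham 1, 2 or 4 or KO MI 3, and 3 without the 3 libraries with almost no Y-linked reads. Irx3, a factor of the conduction system and trabeculae, was at 104, 132, 111 and 114 CPM in KO sham and at 78.2, 71.8, 66.4 and 42.5 CPM in KO MI (log2 -0.83 ± 0.16, adjusted p = 0.00271), and Prdm16, a factor of compact myocardium, fell by 0.84 ± 0.14. Of 20 genes of the dystrophin complex and laminins 0 rose and 8 fell (0 and 10 corrected, median -0.27), with 6 to 9 falls when any 1 library was left out. Dmd, dystrophin, was at 102, 103, 101 and 121 CPM in KO sham and at 52.95, 51.99, 47.8 and 57.3 CPM in KO MI (log2 -1.02 ± 0.12, adjusted p = 6.44e-05). After the length and GC correction its log2 fold change was -0.70. Lama2, a laminin of muscle, fell by 0.68 ± 0.11, Dag1, the matrix receptor dystroglycan, by 0.56 ± 0.10, and Sspn, sarcospan, by 0.59 ± 0.12. Of 26 genes of the Z-disc, the intercalated disc and stress 1 rose and 8 fell (2 and 6 corrected). Dsg2, the desmoglein of desmosomes, was at 93.3, 98.5, 88.3 and 105 CPM against 58.6, 54.5, 52.0 and 64.5 CPM (log2 -0.75 ± 0.10, adjusted p = 0.000136), and Cdh2, N-cadherin, fell by 0.50 ± 0.09. That list's falls numbered 4 without KO sham 2 or KO sham 4 and 5 without KO MI 3. Pde3a, which breaks down cyclic AMP in heart muscle, fell by 0.77 ± 0.16.

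Some genes of fatty acid oxidation and mitochondrial regulation fell, and few of the respiratory chain did. Of 28 genes of fatty acid oxidation and ketone use 0 rose and 8 fell, with a median of -0.21, and 14 fell after the length and GC correction. Pdk4, the kinase that shuts pyruvate out of the mitochondrion, was at 235, 249, 243 and 351 CPM in KO sham and at 120, 95.4, 112 and 170 CPM in KO MI (log2 -1.12 ± 0.15, adjusted p = 0.00024). Cpt1a, the gate of fatty acid import, fell by 0.48 ± 0.09, and Lpl, lipoprotein lipase, by 0.40 ± 0.10, a call lost without the 3 libraries with almost no Y-linked reads. Fabp3, the abundant fatty acid carrier of heart, did not pass at 5110 ± 178 and 5642 ± 611 CPM. Of 17 mitochondrial regulators 0 rose and 7 fell (0 and 7 corrected, median -0.32), ranging from 4 without KO MI 2 to 11 without KO MI 4. Ppargc1b, a coactivator of mitochondrial genes, was at 54.0, 58.3, 62.5 and 64.8 CPM against 34.3, 35.6, 31.8 and 31.5 CPM (log2 -0.85 ± 0.11, adjusted p = 0.00014), and Opa1, which fuses inner membranes, fell by 0.49 ± 0.10. Of 31 nuclear genes of the respiratory chain 0 rose and 2 fell, beside 8.02% of all genes, among them Ndufs1 by 0.39 ± 0.08, and 13 fell after the correction. Among the 13 mitochondrially encoded genes 1 rose and 1 fell (0 and 1 corrected), at a median of 0.07: mt-Nd5 fell from 14417 ± 766 to 8496 ± 1028 CPM (log2 -0.76 ± 0.14), and mt-Co3, named after its values were seen, rose by 0.44 ± 0.10.

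Lipid storage genes were mixed. Of 15 lipid droplet genes 0 rose and 3 fell (1 and 3 corrected), 8 were positive and the median was 0.02. Outside that list, 2 genes of storage were among the falls with the smallest p. Gpam, the first enzyme of triglyceride synthesis, was at 124, 118, 118 and 123 CPM in KO sham and at 79.3, 72.5, 70.1 and 79.8 CPM in KO MI (log2 -0.68 ± 0.08, adjusted p = 7.96e-05). Fitm2, which helps lipid droplets form, was at 49.98, 46.3, 62.5 and 50.2 CPM against 31.0, 27.4, 27.8 and 30.1 CPM (log2 -0.84 ± 0.10, adjusted p = 6.44e-05). Neither gene's groups overlapped. Of 18 genes of insulin and glucose signalling 2 rose and 7 fell (1 and 7 corrected), and 4 fell without KO sham 4 or KO MI 3. Insr, the insulin receptor, fell by 0.63 ± 0.10. Txnip, which restrains glucose uptake, was at 537, 862, 589 and 888 CPM in KO sham and at 517, 405, 397 and 392 CPM in KO MI (log2 -0.75 ± 0.15). Ide, the insulin-degrading enzyme, had one of the largest falls, from 219, 212, 219 and 244 CPM to 79.9, 75.2, 75.6 and 117 CPM (log2 -1.36 ± 0.20, adjusted p = 0.000582).

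Genes that answer to glucocorticoids and metals changed in both directions, 7 of 18 up and 6 down (6 and 4 corrected), with 4 rises without KO sham 2, 3 or 4 and 3 falls without KO sham 2, KO sham 3 or KO MI 3. Zbtb16, a zinc-finger factor strongly induced by glucocorticoids, was at 35.4, 25.5, 22.7 and 23.0 CPM in KO sham and at 2.95, 5.89, 2.43 and 14.9 CPM in KO MI (log2 -2.03 ± 0.42, adjusted p = 0.00599, and -2.84 without KO MI 4). Klf9, another glucocorticoid target, was at 28.3, 23.5, 26.2 and 24.5 CPM against 12.7, 8.35, 13.6 and 20.9 CPM (log2 -0.88 ± 0.18). KO MI 4 was the infarcted library nearest to sham for both. The metallothioneins, which bind zinc and copper, rose: Mt2 from 3.97, 2.35, 2.09 and 2.89 CPM to 10.5, 11.998, 8.92 and 13.1 CPM (log2 1.96 ± 0.26, adjusted p = 0.000166) and Mt1 by 0.82 ± 0.15. Of 19 clock genes 2 rose and 5 fell (2 and 6 corrected), with 8 falls without KO MI 4 and 1 rise without any 1 of 6 of the knockout libraries. Nr1d1, a repressor of the clock, fell by 0.66 ± 0.12, and the time of day of harvest is not in the labels.

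Ribosomal protein genes gave the clearest case of a list that lost its rises under the length and GC correction. Length and GC content were corrected together, so their parts were not told apart. Of 31 tested 18 rose and 0 fell, with a median of 0.33, but 2 rose after the length and GC correction, at a median of 0.11. The count was 3 without KO sham 4, 5 without KO sham 2, 7 without KO MI 4, 8 and 9 without KO sham 1 or 3, and 11 without KO MI 2. Rps6 was at 404, 399, 389 and 381 CPM in KO sham and at 478, 480, 495 and 620 CPM in KO MI (log2 0.40 ± 0.10, adjusted p = 0.00894), with a corrected log2 fold change of 0.20 that did not pass. Over all genes the rank correlation of the knockout log2 fold change with transcript length was -0.41 across 13392 genes, which are not independent, and in wild type -0.06. The median transcript was 2258 bases long among genes that rose, 5153 among genes that fell and 3426 over all.

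Markers of other tissues that a dissected ventricle can hold varied by list. Of 8 lung epithelial genes 1 rose and 1 fell (0 and 1 corrected), but 7 were positive and the median was 0.98. Sftpc, the surfactant protein of alveolar cells, was at 18.3 to 24.5 CPM in KO sham and at 16.03, 20.7, 24.7 and 237 CPM in KO MI, so that KO MI 4 alone was high (log2 1.89 ± 1.17, adjusted p = 0.293, and 0.02 without KO MI 4). Of 2 thymus genes none passed, also after correction. Haemoglobin transcripts summed to 1096 ± 178 CPM in KO sham and 1320 ± 311 CPM in KO MI (two-sided exact permutation p = 0.257), against 3790 CPM on average in WT sham. Of 9 red cell genes 4 rose and 0 fell (3 and 0 corrected), 1 rose without KO MI 3, and 2 without KO sham 4. Endothelial genes gave 3 rises and 1 fall of 20 (2 and 1 corrected), with 3 falls without KO MI 1, 2 without KO MI 4 and 1 rise with any 1 of 6 of the knockout libraries left out. Smooth muscle and pericyte genes gave 4 rises and 3 falls of 17 (4 and 4 corrected), with 1 fall without KO sham 2, KO sham 3 or KO MI 2, and Schwann cell genes 0 rises and 1 fall of 11 (0 and 2 corrected).

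The knockout response differed from the wild-type one for 368 of 13412 genes (2.74%) in a test of the difference of the log2 fold changes. The difference was positive, that is, the response was more upward in knockout, for 221 genes (1.65%) and negative for 147 (1.1%). Both the KO response and this difference contain the KO sham libraries. Of 21 monocyte and macrophage genes 2 had a positive difference and 0 a negative one, with 16 rises in knockout and 5 in wild type. The count was 4 with DESeq2 and 1 with the atrial level in the fit or without the 3 libraries with almost no Y-linked reads. The 2 were Fabp5 (difference 0.82 ± 0.17) and Thbs1, a matrix protein named after its values were seen (1.15 ± 0.24). In WT, infarction raised Cd14 by 0.96 ± 0.20 and Mmp12 by 3.26 ± 0.61, beside 1.15 and 4.30 in knockout, and neither difference passed (adjusted p = 0.752 and 0.621).

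Differences were frequent in the epicardial list, positive for 16 of 22 genes with a median of 1.99, where wild type gave 0 rises and 2 falls. That count was 7 without KO sham 1, 2 or 4, 8 without KO MI 2, 9 without WT MI 1, 10 without WT sham 3 or WT MI 4, 13 after the length and GC correction and 0 once the atrial level was in the fit. Upk1b stood at 3.85 CPM in WT sham and 1.62 CPM in WT MI on average, opposite in order to its knockout means of 0.448 and 3.69 CPM (difference 4.24 ± 0.76, adjusted p = 0.0062, not called with the atrial level in the fit). Red cell genes also differed often, with 6 of 9 positive at a median of 1.17, where wild type gave 0 rises and 5 falls. Their count was 5 to 7 with any 1 library left out and 5 with the atrial level in the fit. It was 2 in the fit without haemoglobin and mitochondrial genes. Of 24 cytoskeletal genes 5 had a positive difference, 12 without WT MI 2, 8 without KO MI 1, 9 with DESeq2 and 15 with voom. Actb was at 755 and 734 CPM in WT sham and WT MI, near its KO MI mean of 735 CPM and far from 435 CPM in KO sham (difference 0.80 ± 0.15, adjusted p = 0.00658), and Actg1 and Tubb2b had differences of 0.79 ± 0.14 and 1.21 ± 0.23. The same arrangement, with KO sham apart and the other 3 groups nearer to each other, held for the group means of Mest (difference 0.86 ± 0.15), Mt1 (0.97 ± 0.21), Mt2 (2.07 ± 0.35), Gpam (-0.62 ± 0.12) and Filip1 (-0.61 ± 0.12).

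A smaller set of genes went in opposite directions in the 2 genotypes. Slc3a2, which rose in knockout, fell in wild type from 97.3 to 60.1 CPM (log2 -0.70, adjusted p = 0.000346), and its difference of 1.23 ± 0.12 had the smallest p of all genes (adjusted p = 2.78e-05). Tnni1 fell in wild type from 1081 to 651 CPM against its rise in knockout (difference 1.57 ± 0.18, adjusted p = 0.000122). Arid5a, a protein that stabilises cytokine messenger RNA, was at 9.83, 10.5, 9.94 and 9.38 CPM in KO sham and at 13.2, 16.3, 23.6 and 19.6 CPM in KO MI, but went from 31.9 to 17.6 CPM in wild type (difference 1.73 ± 0.20, adjusted p = 0.000182). Plaur fell in wild type from 12.2 to 6.70 CPM (difference 2.12 ± 0.26). In each of these 4 genes WT sham was the highest and KO sham the lowest of the 4 group means, while KO MI and WT MI were close to each other. Cdr2, Spon2 and Ptgds also rose in knockout and had differences of 1.31 ± 0.16, 0.91 ± 0.13 and 1.29 ± 0.18, though their wild-type changes did not pass.

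The mirror image was also seen. Sema7a, a membrane-bound semaphorin, was at 91.1, 85.9, 91.3 and 82.5 CPM in KO sham and at 75.1, 59.6, 70.8 and 55.5 CPM in KO MI, while it rose in wild type from 43.4 to 67.3 CPM (difference -1.06 ± 0.14, adjusted p = 0.000287). Aplnr, the apelin receptor of endothelium, fell from 156 ± 13.7 to 96.8 ± 28.9 CPM in knockout and rose from 64.9 to 104 CPM in wild type (difference -1.37 ± 0.23, adjusted p = 0.00397). Tnfsf10, the death ligand TRAIL, had a difference of -1.97 ± 0.29, falling in knockout from 6.46 ± 0.879 to 3.32 ± 0.799 CPM and rising in wild type. Fitm2, Irx3, Epas1 and Abi3bp, a matrix protein, fell in knockout with differences of -1.15 ± 0.14, -1.30 ± 0.23, -0.83 ± 0.15 and -1.18 ± 0.21, and their wild-type changes did not pass. For Irx3 the difference was not called with the atrial level in the fit.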

How the data were processed

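Polyadenylated RNA of 16 samples, 4 in each group, was compared as read counts. The authors deposited raw counts of reads per Ensembl gene, not normalized. Per the submitters' processing notes, the build was GRCm39 and the tools named, in no stated order, were HTSeq 0.13.5, HISAT2 2.2.1, DESeq2, cutadapt 3.4, FastQC and bcl2fastq 2.17; the strand setting and annotation release are not given in the sources used here. The 5 rows that name no gene were left out of library totals; reads in no feature came to 23.7 to 28.2% of the gene counts and those rows together. No column of per-sample values went unused (0 columns).

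Counts of 22468 genes were filtered by edgeR's default expression filter, scaled by TMM and fitted over all 16 samples with edgeR's quasi-likelihood test (edgeR 4.0.16, limma 3.58.1, R 4.3.3), with Benjamini-Hochberg adjustment over 13412 genes. Groups came from the labels. Transcript length and GC content came from a GRCm38 annotation matched by gene, since no GRCm39 annotation was used here. Same-numbered sham and infarcted libraries had correlations of -0.11, -0.09, 0.07 and 0.10, so they were not treated as pairs. No libraries looked like 1 library deposited again, with a chi-square per degree of freedom of at least 3.74. DESeq2 1.42.0, voom, other scalings, filters, covariates and leaving out each library were the alternatives. The code was tested on simulated data.

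Genes were named by a rule: the smallest p, largest folds and highest levels among called genes without overlap, the smallest p for the difference between responses, and in each list up to 6 called and 3 abundant members that did not pass. The members, lists and alternatives were chosen with earlier results of these data known.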

Additional observations from a re-analysis of the deposited data

Results flagged for a closer look

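In a group of 4 libraries, 1 library was taken to stand apart where its gap to the nearest other was a larger part of the group's range than Dixon's critical value allows. Chance gives this in about 1 in 20 groups; here it was met in 28 of 290 groups looked at (9.66%), with 8 in KO MI 4 and 7 in KO sham 4.

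KO MI 4 stood apart from the other 3 infarcted libraries in cardiac and matrix genes. Myh6 was at 13345 CPM (others 31782 to 33747), Postn at 1296 CPM (814 to 861), Ide at 117 CPM (75.2 to 79.9), Rps6 at 620 CPM (478 to 495) and Ngp at 7.87 CPM (2.95 to 3.37). Sftpc was at 237 CPM in the same library (16.03 to 24.7). Its mitochondrially encoded share was 17.3% (9.79 to 10.6%), and its level of GC-rich minus GC-poor genes was -0.44 on the log2 scale (0.11 to 0.18).

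Among the other infarcted libraries, Arg1 was at 152 CPM in KO MI 3 (4.32 to 26.6) and Jph2 at 369 CPM (396 to 401). KO MI 2 was high for Mki67 at 276 CPM (189 to 204), Ccne1 at 14.7 CPM (9.88 to 10.6) and Myh8 at 6.81 CPM (3.15 to 3.67). KO MI 1 was low for Acta1 at 131 CPM (156 to 158) and high for Txnip at 517 CPM (392 to 405).

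After sham surgery, KO sham 4 was high for Pdk4 at 351 CPM (235 to 249), Cpt1a at 143 CPM (128 to 130.2), Dmd at 121 CPM (101 to 103) and Mcm5 at 66.8 CPM (51.7 to 53.9), and low for Tpx2 at 40.9 CPM (46.7 to 47.8) and Upk1b at 0.16 CPM (0.521 to 0.588). Its level of long minus short genes was 0.44 on the log2 scale (0.25 to 0.27). KO sham 1 stood apart for Uchl1 at 32.9 CPM (27.1 to 27.9), Lgals3 at 2.41 CPM (3.46 to 3.66) and Sftpc at 24.5 CPM (18.3 to 18.9). KO sham 3 was high for Junb at 13.4 CPM (11.9 to 12.2) and Epas1 at 250.4 CPM (212 to 218), and KO sham 2 for Nr1d1 at 42.3 CPM (40.6 to 40.8).

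For 42 of the 139 named genes the knockout and wild-type responses differed in the test of the difference itself (29 positive and 13 negative), and its value on the log2 scale is given for 24 of them. It was positive for Upk1b (4.24), Plaur (2.12), Mt2 (2.07), Arid5a (1.73), Tnni1 (1.57), Cdr2 (1.31), Ptgds (1.29), Slc3a2 (1.23), Tubb2b (1.21), Mt1 (0.97), Spon2 (0.91), Mest (0.86), Fabp5 (0.82), Actb (0.80) and Actg1 (0.79). It was negative for Tnfsf10 (-1.97), Aplnr (-1.37), Irx3 (-1.30), Abi3bp (-1.18), Fitm2 (-1.15), Sema7a (-1.06), Epas1 (-0.83), Gpam (-0.62) and Filip1 (-0.61). These 24 were chosen among those that passed.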

How the results depend on the processing

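The count of genes called in knockout (2220) was 4811 with limma voom (2315 up, 2496 down) and 1291 without the 3 libraries with almost no Y-linked reads (756 up, 535 down). Leaving out 1 library gave 1230 (without KO MI 2) to 2931 (without KO MI 4) in all, 653 to 1370 up and 577 to 1561 down. DESeq2 called 2623 and shared 2209 calls with the reported fit, while the length and GC correction called 2134 and shared 1438. The count of genes whose response differs between KO and WT (368, with 221 responses higher in KO and 147 responses lower in KO) was 628 with DESeq2 (360 higher, 268 lower), 1509 with voom (766 and 743), 217 without the libraries with almost no Y-linked reads (61 lower) and 112 with the atrial level in the fit (76 and 36). Leaving out 1 library gave 178 to 817, with 119 to 421 higher and 59 to 396 lower. With the replicate number as a block, 2413 genes were called (1175 up, 1238 down) and 350 responses differed; the numbers did not pair the libraries. Of 124 called genes named here, 115 kept their call in each of the 13 settings and 16 omissions that gave them a result. A gene without a result in a setting, as where its counts were too low for a filter, was not counted as lost. Signs changed only for 4 genes that did not pass: the Col3a1 log2 change in KO was -0.0115 without the libraries with almost no Y-linked reads and -0.0132 to 0.144 without single libraries, the Myh6 log2 change in KO was -0.313 to 0.0212 (0.0212 without KO MI 4), the Fabp3 log2 change in KO was -0.136 after the length and GC correction and the Myl7 log2 change in KO was -0.0197 with the atrial level. The cause was not tested. Depth limits genes near the floor of 3 reads, such as Chrna7, Marco, Dmkn and Il1b.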

Other observations

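Some genes of the lists had too few reads for the filter, and are given as reads summed over 4 libraries. Ccl8, a chemokine of macrophages, had 2 reads in KO sham and 33 in KO MI, of which 15 came from 1 library. Mpo, myeloperoxidase of neutrophils, had 0 reads in KO sham and 14 in KO MI, and Elane, neutrophil elastase, had 1 and 4.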
